A study of Mus musculus with 18 samples.

Results

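The HOX genes are the transcription factor genes of the HoxA, HoxB, HoxC and HoxD clusters, and their transcripts were followed here in 2 endothelial cell types of mouse embryos, the lymphatic (LEC) and the blood vascular (BEC). Members were all rows of the array table whose annotation gave exactly 1 gene symbol and that symbol was a HOX gene, which gave 37 HOX genes among 19938 genes measured in all. Hoxb8, which shares a row with Hoxb7, was not analysed here. The arrays fall into 6 groups of 3: LEC and BEC at embryonic day (E) 14.5, LEC and BEC at E16.5, and LEC and BEC at E18.5. Per the labels the 3 replicates of a group come from independent litters, and per the design text LEC and BEC samples of the same litters were matched at each age. No transgene, mutation or treatment is named in the labels for any group. The labels give the way the cells were separated only through a citation, so gates and purity are not described here. The title of the series concerns the control of LEC identity through an enhancer bound by the transcription factor GATA2. The HOX values here describe how far HOX transcripts differ between the LEC and BEC arrays. HOX levels also vary with body region, and whether LEC and BEC came from the same mix of regions was not tested.

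HOX proteins bind DNA through a homeodomain, mostly together with partner proteins of the TALE class (PBX, MEIS and PKNOX). Genes at the 3′ end of each cluster, with low paralogue numbers, are switched on early and reach far towards the head, whereas genes at the 5′ end, with high numbers, act towards the tail and the tips of the limbs. Cells keep much of this pattern after it is laid down, through Polycomb and Trithorax proteins, so that endothelial cells and fibroblasts of different body regions carry different HOX transcripts. In cultured human endothelial cells HOXD3 and HOXB3 promote angiogenic behaviour, HOXA9 raises transcription of genes such as NOS3, and HOXD10 and HOXA5 restrain migration and vessel formation.

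The values are log2 expression values, so that a difference of 1 is a 2-fold difference. All 8 lymphatic markers measured, Prox1 among them, were higher in LEC over the 3 ages and all 8 blood endothelial markers were lower, and all 10 pan-endothelial markers lay above the bound for dim genes defined below in every group. Of these 10, 1 was higher and 7 were lower in LEC over the 3 ages (median -0.724). Most HOX calls lay on the lower side too, and a link to these markers was not tested. The arrays of a group correlated at 0.986 to 0.996 over all genes. The interquartile range of all genes was 3.034 to 3.276 on the E18.5 arrays, narrower than the 3.334 to 3.702 of the others. Other cell types differed between LEC and BEC as well. Over the 3 ages 10 of 10 mural cell markers were lower in LEC, and the sum of their values on the linear scale was 693 to 777 in LEC and 2508 to 2786 in BEC at E14.5, 784 to 849 and 3571 to 3851 at E16.5, and 694 to 997 and 5508 to 6869 at E18.5. Of the 14 fibroblast and mesenchyme markers 2 were higher and 5 lower in LEC, and their sum was 2225 to 2898 on LEC arrays and 1563 to 2332 on BEC arrays. Markers of macrophages (12 of 12 higher in LEC), mast cells (8 of 8), other leukocytes (6 of 7), keratinocytes (9 of 11) and neurons (1 of 8 measured) were called only as higher, and markers of skeletal muscle (3 of 8) and erythroid cells (3 of 6 measured) only as lower. The part of these cells in the HOX differences between LEC and BEC was not tested. For every HOX value below, fewer cells of a type and less RNA per cell cannot be told apart.

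A gene was called above the dim bound in a group when its group mean exceeded 4.62, the 95th percentile of the group means of 1194 olfactory and vomeronasal receptor genes, which belong to sensory neurons. By this measure 26 of the 37 HOX genes (70.3%) were above the bound in at least 1 group and 21 (56.8%) in all 6, against 74.4% and 63.7% of all genes. With the 99th percentile as the bound the HOX counts were 18 (48.6%) and 17 (45.9%), against 59.8% and 47.9% of all genes. At E14.5 the bound was passed by 24 HOX genes in LEC and 26 in BEC, at E16.5 by 21 and 22, and at E18.5 by 23 and 26. These are 56.8% to 70.3% of the members per group, against 66.7% to 71.0% of all genes.

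The clusters differed in how many members passed. In HoxB, 8 of 9 members were above the bound in every group, all but Hoxb13. HoxD had 7 of 9 members above it in every group (Hoxd1, Hoxd3, Hoxd4, Hoxd8, Hoxd9, Hoxd10 and Hoxd11), Hoxd12 in 3 groups, and Hoxd13 in none. HoxA had 6 of 10 in every group, which were Hoxa3 to Hoxa7 and Hoxa9. Hoxa2 was above the bound in 4 groups, Hoxa10 in 3, and Hoxa11 and Hoxa13 in none. HoxC had the fewest, with 0 of 9 members above the bound in every group, Hoxc8 and Hoxc9 each above it in 3 groups, and Hoxc4, Hoxc5, Hoxc6 and Hoxc10 to Hoxc13 in none. By paralogue position, 6 of 7 anterior members (paralogues 1 to 3), 10 of 14 central members (4 to 8) and 5 of 16 posterior members (9 to 13) were above the bound in every group. The posterior members above it throughout were Hoxa9, Hoxb9, Hoxd9, Hoxd10 and Hoxd11. Probes of different genes differ in response, which limits these comparisons between clusters and positions. A gene not above the bound is therefore not shown to be silent.

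**Figure D1:**
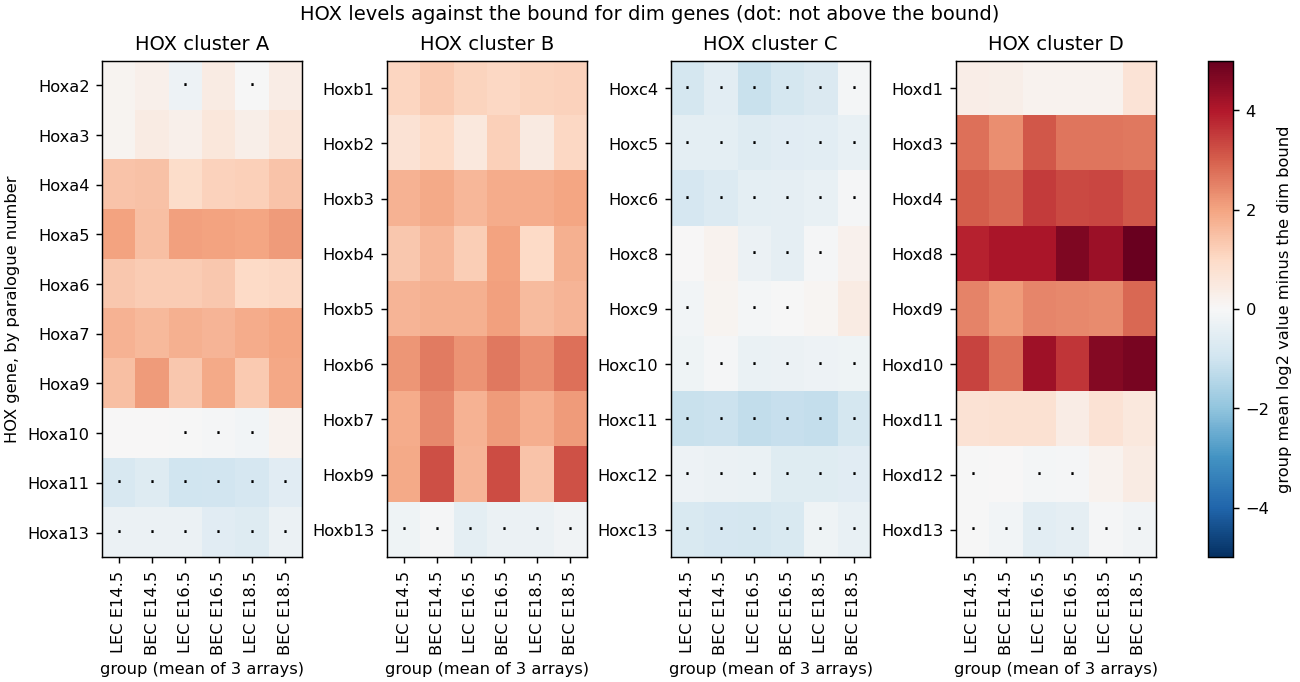
Group means of the 37 HOX genes minus the dim bound, in log2 units, with 1 panel per cluster, 1 line per gene in order of paralogue number and 1 column per group of 3 arrays. Dots mark group means that are not above the bound, and they fill most of the HoxC panel and the highest paralogue numbers of HoxA, HoxB and HoxD.

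Over the 3 ages together more HOX genes were lower than higher in LEC. In a limma fit over all 19938 genes, 2 of the 37 HOX genes were called higher and 11 lower in LEC at an adjusted p under 0.05 (Benjamini-Hochberg), which is 5.41% and 29.7% of the members, against 18.2% and 19% of all genes (37.1% either way). The median HOX difference, LEC minus BEC, was -0.148, against -0.025 over all genes. HoxB held 5 of the 11 lower calls, 5 of its 9 members, and all 9 of its differences were negative (-1.563 to -0.06, median -0.409). HoxA had 3 of 10 lower (median -0.121), HoxC 2 of 9 (median -0.093), and HoxD 1 lower and 2 higher of 9 (median 0.045). By position, 1 anterior member was higher and 3 lower of 7, 5 central members were lower of 14, and 1 posterior member was higher and 3 lower of 16. Of the 11 members not above the dim bound in any group, 1 was called.

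**Figure D2:**
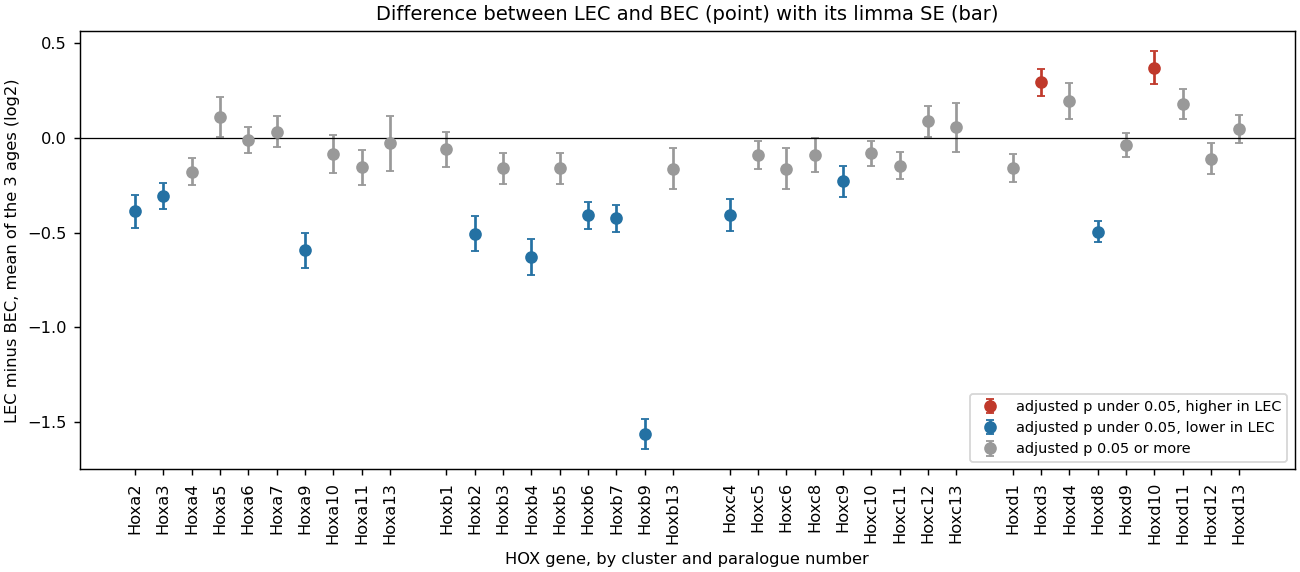
Difference between LEC and BEC (log2, mean of the 3 ages) for each HOX gene along the 4 clusters, with the limma standard error as bar. Blue points are called lower and red points higher in LEC, and Hoxb9 lies lowest at -1.56.

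Hoxb9, a posterior gene that helps to pattern the thoracic skeleton in mice, had the largest difference among the members. At E14.5 it read 6.53, 6.56 and 6.47 on the LEC arrays, against 7.85, 7.80 and 7.91 on the BEC arrays. At E16.5 it read 6.24, 6.61 and 6.07 in LEC, against 7.86, 8.12 and 7.71 in BEC. At E18.5 it read 6.12, 5.93 and 6.06 in LEC, against 7.82, 8.01 and 7.58 in BEC. All 9 LEC arrays lay below all 9 BEC arrays. The difference, LEC minus BEC, was -1.56 ± 0.08 (limma standard error, SE; adjusted p = 4.98e-12) over the 3 ages. By age it was -1.33 at E14.5 (adjusted p = 5.8e-07), -1.59 at E16.5 (adjusted p = 2.89e-08) and -1.76 at E18.5 (adjusted p = 6.66e-09). Mural cell markers were lower in LEC too. Between E14.5 and E18.5 the mural markers in BEC had a median change of 1.580, with 9 of 10 higher. Hoxb9 in BEC averaged 7.80 ± 0.22 at E18.5 and 7.85 ± 0.05 at E14.5 (SD, n = 3 each). The part of mural cells in the Hoxb9 difference was not tested.

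The central and anterior HoxB genes showed smaller differences in the same direction. Hoxb4, known from its ability to expand blood stem cells, read 6.04, 5.75 and 6.11 in LEC, against 6.06, 6.46 and 6.35 in BEC at E14.5. At E16.5 it read 5.70, 5.92 and 5.94 in LEC, against 6.78, 6.74 and 6.39 in BEC, and at E18.5 it read 5.24, 5.77 and 5.89 in LEC, against 6.28, 6.40 and 6.58 in BEC. The groups overlapped at E14.5 and were apart at both later ages. Its difference over the 3 ages was -0.63 ± 0.09 (SE, adjusted p = 2e-05), with -0.79 at E16.5 (adjusted p = 0.00107) and -0.79 at E18.5 (adjusted p = 0.000989).

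Hoxb2, which patterns the hindbrain, read 5.52, 5.17 and 5.35 in LEC, against 5.39, 5.81 and 5.60 in BEC at E14.5. It read 5.21, 5.39 and 4.89 in LEC, against 6.0, 5.88 and 5.59 in BEC at E16.5, and 5.0, 5.11 and 5.09 in LEC, against 5.34, 5.78 and 5.90 in BEC at E18.5. As for Hoxb4, the groups overlapped at E14.5 and not later. Its difference was -0.51 ± 0.09 over the 3 ages (SE, adjusted p = 0.000184), -0.66 at E16.5 (adjusted p = 0.00406) and -0.61 at E18.5 (adjusted p = 0.00686).

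Hoxb7 and Hoxb6 are neighbouring central genes. Hoxb7 read 6.58, 6.31 and 6.54 in LEC, against 6.95, 7.04 and 7.12 in BEC at E14.5. It read 6.31, 6.35 and 6.40 in LEC, against 6.84, 6.57 and 6.84 in BEC at E16.5, and 6.48, 6.32 and 6.52 in LEC, against 6.49, 6.98 and 6.79 in BEC at E18.5. Its groups were apart at the 2 earlier ages and overlapped at E18.5, and the difference over the 3 ages was -0.42 ± 0.07 (SE, adjusted p = 7.4e-05). Hoxb6 read 6.66, 6.89 and 6.89 in LEC, against 7.10, 7.38 and 7.14 in BEC at E14.5. It read 7.07, 6.73 and 6.82 in LEC, against 7.24, 7.37 and 7.18 in BEC at E16.5, and 6.99, 7.10 and 6.75 in LEC, against 7.38, 7.30 and 7.48 in BEC at E18.5. Its groups were apart at each age, and the difference over the 3 ages was -0.41 ± 0.07 (SE, adjusted p = 8.98e-05). The other HoxB members, Hoxb1, Hoxb3, Hoxb5 and Hoxb13, had negative differences that were not called.

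Hoxa9 led the HoxA cluster. It read 6.07, 6.11 and 6.17 in LEC, against 6.76, 6.79 and 6.72 in BEC at E14.5. It read 6.04, 6.13 and 5.78 in LEC, against 6.48, 6.98 and 6.07 in BEC at E16.5, and 5.93, 6.02 and 5.89 in LEC, against 6.73, 6.47 and 6.47 in BEC at E18.5. The groups were apart at E14.5 and E18.5, and at E16.5 the lowest BEC array lay within the LEC range. The difference was -0.59 ± 0.09 over the 3 ages (SE, adjusted p = 3.12e-05) and was called at each age, as it was for Hoxb6 and Hoxb9 and for no other member.

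**Figure D3:**
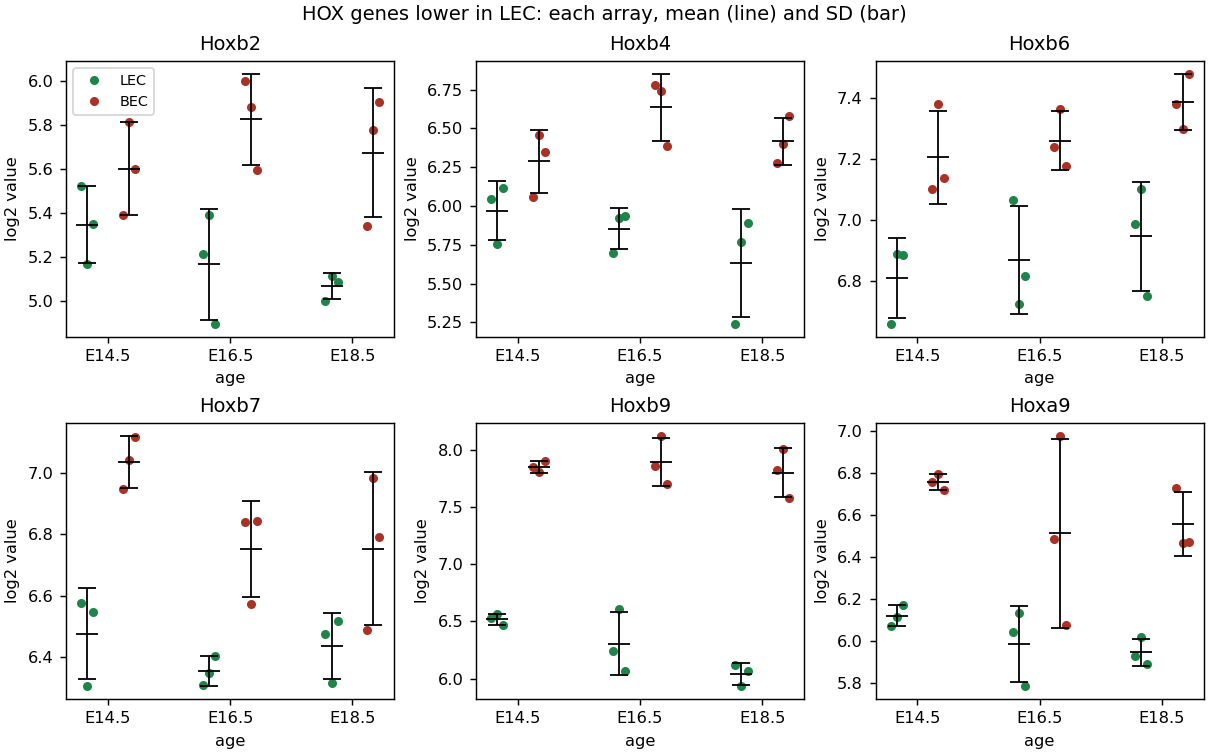
Log2 values of the 5 called HoxB genes and Hoxa9 on each array, by age, with LEC left of BEC, the group mean as line and the SD as bar (n = 3 per group). Each panel has its own range, and LEC and BEC arrays are apart at all 3 ages for Hoxb6 and Hoxb9.

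The remaining lower calls outside HoxD were of Hoxa2, Hoxa3, Hoxc4 and Hoxc9, of which Hoxa3 was above the dim bound in every group. Hoxa2, an anterior gene of the hindbrain and neck, read 4.41, 4.33 and 4.38 in LEC, against 5.06, 4.85 and 5.20 in BEC at E16.5, with the groups apart. Its LEC mean there was not above the dim bound, so the size of the difference, -0.66 (adjusted p = 0.00211), may be understated. E16.5 was the only age at which Hoxa2 was called, and over the 3 ages its difference was -0.39 ± 0.09 (SE, adjusted p = 0.00122). Hoxa3, needed in mice for the thymus and parathyroid, read 4.98, 4.70 and 5.04 in LEC, against 5.44, 5.11 and 5.18 in BEC at E18.5, the only age at which it was called (difference -0.34, adjusted p = 0.0377). Its groups did not overlap there, and the call was lost under 5 of the alternative settings (adjusted p of 0.07 to 0.181 there). Hoxc4 read 3.95, 4.05 and 3.69 in LEC, against 4.85, 4.32 and 4.44 in BEC at E18.5. It was called over the 3 ages (-0.41 ± 0.08, SE, adjusted p = 0.000589) with no group mean above the bound. Hoxc9, named after its values were seen because it completes the lower calls, differed by -0.23 ± 0.08 (SE, adjusted p = 0.0334) and was called at no single age.

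The HoxD genes did not share 1 direction. Hoxd3 was higher in LEC. At E14.5 it read 7.19, 7.48 and 7.40 in LEC, against 6.83, 7.19 and 6.84 in BEC. It read 7.83, 7.53 and 7.79 in LEC, against 7.23, 7.36 and 7.28 in BEC at E16.5, and 7.29, 7.13 and 7.49 in LEC, against 7.18, 7.26 and 7.31 in BEC at E18.5. The groups were apart at E16.5 (difference 0.43, adjusted p = 0.0146), overlapped by 1 array at E14.5 (0.40, adjusted p = 0.0304) and overlapped at E18.5, where Hoxd3 was not called. Over the 3 ages the difference was 0.29 ± 0.07 (SE, adjusted p = 0.00285).

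Hoxd10, a posterior gene that patterns limbs and lumbar motor neurons, was higher in LEC at the 2 earlier ages. It read 7.96, 7.88 and 8.13 in LEC, against 7.01, 7.42 and 7.66 in BEC at E14.5, and 8.82, 8.90 and 8.79 in LEC, against 8.07, 8.38 and 8.16 in BEC at E16.5. At E18.5 it read 9.0, 9.46 and 9.18 in LEC, against 9.28, 9.32 and 9.51 in BEC. LEC arrays were above all BEC arrays at E14.5 and E16.5, and the groups overlapped at E18.5. The difference was 0.63 at E14.5 (adjusted p = 0.00489), 0.64 at E16.5 (adjusted p = 0.00296) and -0.15 at E18.5 (adjusted p = 0.477). Over the 3 ages it was 0.37 ± 0.09 (SE, adjusted p = 0.00186), and without the E18.5 arrays it was 0.63.

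Hoxd8, reported as a target of Prox1 with a part in lymphatic vessel growth, was lower in LEC. It read 8.43, 8.45 and 8.47 in LEC, against 8.66, 8.73 and 8.76 in BEC at E14.5. It read 8.69, 8.74 and 8.74 in LEC, against 9.22, 9.49 and 9.18 in BEC at E16.5, and 9.02, 8.86 and 8.85 in LEC, against 9.54, 9.63 and 9.48 in BEC at E18.5. LEC arrays lay below all BEC arrays at each age. The difference was -0.26 at E14.5 (adjusted p = 0.0731), -0.58 at E16.5 (adjusted p = 0.000106) and -0.64 at E18.5 (adjusted p = 3.06e-05), and -0.50 ± 0.06 over the 3 ages (SE, adjusted p = 4.7e-07).

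Hoxd9 changed sides with age. It read 7.06, 7.12 and 7.16 in LEC, against 6.64, 6.92 and 6.72 in BEC at E14.5, with LEC above. At E16.5 it read 7.12, 6.90 and 7.20 in LEC, against 6.96, 7.14 and 6.98 in BEC, with the groups overlapping. At E18.5 it read 7.01, 7.10 and 6.83 in LEC, against 7.48, 7.49 and 7.52 in BEC, with LEC below. The difference was 0.35 at E14.5 (adjusted p = 0.0268) and -0.52 at E18.5 (adjusted p = 0.000966). Of the other HoxD members, Hoxd1 read 4.98, 4.95 and 4.50 in LEC, against 5.41, 5.28 and 5.22 in BEC at E18.5, its only age with a call (-0.49, adjusted p = 0.00677), with the groups apart. Hoxd11 read 5.50, 5.36 and 5.31 in LEC, against 5.0, 4.86 and 5.16 in BEC at E16.5, also its only age with a call (0.39, adjusted p = 0.0442). The groups were apart, and the call was lost in 11 of 26 alternative settings (adjusted p of 0.05 to 0.178 in those).

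Counted at each age, the balance of HOX calls was even at E14.5 and lay on the lower side at E18.5. At E14.5, 3 HOX genes were higher and 4 lower in LEC (8.11% and 10.8% of members), against 8.6% and 7.94% of all genes (16.5% either way). At E16.5, 3 were higher and 8 lower (8.11% and 21.6%), against 13% and 12.2% of all genes (25.2% either way), and 7 in all were called without replicate 3 of LEC at E16.5. At E18.5, 0 were higher and 10 lower (0% and 27%), against 14.6% and 15.9% of all genes (30.4% either way). The 10 were Hoxa3, Hoxa9, Hoxb2, Hoxb4, Hoxb6, Hoxb9, Hoxc4, Hoxd1, Hoxd8 and Hoxd9. For all 10 every LEC array lay below every BEC array. This held for 90.7% of all genes called lower at that age and for 18.7% of all genes. The HOX members had a median difference of -0.089 at E14.5 (all genes -0.026). It was -0.071 at E16.5 (all genes -0.002) and -0.269 in the E18.5 groups (all genes -0.043). At an unadjusted p under 0.05 in the same limma fit, 0 HOX genes were higher and 14 lower in LEC at E18.5. Of all 19938 genes 3630 were higher and 4285 lower by that measure.

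The HOX genes with the largest rises between E14.5 and E18.5 in BEC were 3 neighbouring protein-coding genes of the HoxD cluster, Hoxd10, Hoxd9 and Hoxd8, in this order along mouse chromosome 2. Hoxd10 and Hoxd8 were also the only 2 HOX genes called higher in LEC between these ages. Their start regions are shown because these neighbours carry the age result, each from 250 bases before to 50 bases after the annotated start, 5′ to 3′ on the plus strand, from RefSeq on GRCm38.p6. They span chr2:74691641-74691940 (Hoxd10), chr2:74697513-74697812 (Hoxd9) and chr2:74704365-74704664 (Hoxd8). Capitals mark the only match among the motifs searched on both strands, which were the GATA core (AGATAA or TGATAA), a HOX half-site (TAATTA), a PBX-HOX site (TGATTNAT), a caudal-type site (TTTATG) and a TATA box (TATAAA).
Hoxd10: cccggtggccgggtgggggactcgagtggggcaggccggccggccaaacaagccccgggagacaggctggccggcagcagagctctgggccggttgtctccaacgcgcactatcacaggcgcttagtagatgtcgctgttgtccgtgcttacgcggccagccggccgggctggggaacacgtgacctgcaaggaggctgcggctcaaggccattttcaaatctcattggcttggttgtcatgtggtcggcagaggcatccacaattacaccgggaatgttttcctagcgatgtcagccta
Hoxd9: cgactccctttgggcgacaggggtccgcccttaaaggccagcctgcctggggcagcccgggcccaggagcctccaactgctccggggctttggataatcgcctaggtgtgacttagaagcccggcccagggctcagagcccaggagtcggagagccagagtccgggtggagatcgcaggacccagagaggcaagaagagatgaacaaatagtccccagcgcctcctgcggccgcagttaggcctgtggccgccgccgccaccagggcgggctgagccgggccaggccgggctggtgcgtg
Hoxd8: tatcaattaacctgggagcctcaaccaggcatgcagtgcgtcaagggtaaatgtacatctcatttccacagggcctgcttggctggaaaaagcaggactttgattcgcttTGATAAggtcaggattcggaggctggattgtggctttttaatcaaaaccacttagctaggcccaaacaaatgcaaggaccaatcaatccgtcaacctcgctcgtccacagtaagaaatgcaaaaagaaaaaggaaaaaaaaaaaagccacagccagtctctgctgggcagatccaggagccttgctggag
The Hoxd10 and Hoxd9 windows held 22 and 20 CpG dinucleotides and none of these motifs, and the Hoxd8 window held 6 CpG and 1 GATA core. Promoters were listed for 21 of the 37 members (23 windows in all), with a median of 15 CpG, against 7 over all 32817 promoters of that length. A GATA core stood in 2 of the 23 HOX windows, against 18.6% of all promoters, a HOX half-site in 2 (5.3% of all), a PBX-HOX site in 2 (3.2%), a caudal-type site in 4 (11.9%) and a TATA box in 3 (13.6%).

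In BEC, 7 HOX genes were higher at E18.5 than at E14.5 and 0 lower (18.9% and 0% of members), against 13.3% and 17.3% of all genes (30.6% either way), with a median HOX change of 0.129, against 0.035 over all genes. HoxD held 4 of the 7, HoxC 2 and HoxA 1. At an unadjusted p under 0.05 the limma fit had 10 higher and 1 lower, against 3682 and 4157 of all 19938 genes. Hoxd10 in BEC averaged 7.36 ± 0.33 at E14.5, 8.20 ± 0.16 at E16.5 and reached 9.37 ± 0.12 at E18.5 (SD, n = 3 each), with no overlap between any of the ages on the arrays given above. The E18.5 minus E14.5 change was 2.01 ± 0.15 (SE, adjusted p = 1.29e-08). Hoxd8 averaged 8.72 ± 0.05, 9.30 ± 0.17 and 9.55 ± 0.08, a change of 0.84 ± 0.10 (SE, adjusted p = 2.16e-06). Hoxd9 averaged 6.76 ± 0.14, 7.02 ± 0.10 and 7.50 ± 0.02, a change of 0.74 ± 0.11 (SE, adjusted p = 3.15e-05).

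The other calls in BEC were smaller or of dim genes. Hoxa5 read 6.74, 6.74 and 6.83 at E18.5, against 6.04, 5.84 and 6.51 at E14.5 (0.64 ± 0.18, SE, adjusted p = 0.0124), with the ages apart. Hoxc6, a gene of the thoracic region, read 4.72, 4.43 and 4.58 at E18.5, against 3.68, 4.25 and 3.87 at E14.5 (0.64 ± 0.19, SE, adjusted p = 0.0125), apart but with no group above the dim bound. Each of these calls was lost in 2 alternatives, for Hoxa5 with array weights (adjusted p = 0.0555) and without replicate 2 of BEC at E14.5 (adjusted p = 0.0787), and for Hoxc6 without replicate 1 of BEC at E14.5 (adjusted p = 0.0712) or at E18.5 (adjusted p = 0.0536). Hoxc4 changed by 0.44 ± 0.15 (SE, adjusted p = 0.0267) and Hoxd1 by 0.40 ± 0.13 (SE, adjusted p = 0.0256). Under quantile normalization of all rows 5 of the 7 calls in BEC were kept, and those of Hoxc4 and Hoxd1 were lost. With arrays at a common median 6 of the 7 were kept. In the same BEC arrays 9 of 10 mural cell markers rose, as did 7 of 14 fibroblast and mesenchyme markers (3 fell) and 6 of 11 keratinocyte markers. Of the lymphatic markers 6 of 8 fell (median -1.683), as did 5 of 8 mast cell markers (1 rose) and 3 of 7 leukocyte markers. The part of these cells in the HOX changes was not tested.

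In LEC, 2 HOX genes were higher and 2 lower at E18.5 than at E14.5 (5.41% each way), against 19.7% and 21.2% of all genes (40.9% either way), and the median change was -0.043, against 0.042 over all genes. Hoxd10 in LEC averaged 7.99 ± 0.13 at E14.5, 8.84 ± 0.06 at E16.5 and reached 9.22 ± 0.23 at E18.5 (SD, n = 3 each), with no overlap between the ages, and its change was 1.23 ± 0.15 (SE, adjusted p = 2.44e-06). Hoxd8 averaged 8.45 ± 0.02, 8.72 ± 0.03 and 8.91 ± 0.09, also without overlap, a change of 0.46 ± 0.10 (SE, adjusted p = 0.000766). Hoxb9 averaged 6.52 ± 0.05, 6.31 ± 0.28 and 6.04 ± 0.09, with every E18.5 array below every E14.5 array and a change of -0.48 ± 0.14 (SE, adjusted p = 0.00901). Hoxa6, a central gene of the thoracic region, read 5.63, 5.60 and 5.67 at E18.5, against 6.06, 5.97 and 5.93 at E14.5 (-0.35 ± 0.12, SE, adjusted p = 0.0228). That call was lost without replicate 1 of LEC at E14.5 (adjusted p = 0.0823) and without replicate 2 of LEC at E18.5 (adjusted p = 0.0576). The count of 4 became 7 without replicate 1 and 8 without replicate 3 of LEC at E18.5. After a shift of every array to the same median, 2 were higher and 4 lower. In LEC 11 of 12 macrophage markers and 7 of 11 keratinocyte markers also rose between these ages. So did 5 of 8 lymphatic and 6 of 8 blood endothelial markers (2 fell). Of 10 mural cell markers 4 rose and 3 fell, and of 14 fibroblast and mesenchyme markers 2 rose and 3 fell. Mast cell markers rose in 3 of 8 cases and leukocyte markers in 3 of 7 (3 fell). The part of all these cells in the LEC changes was not tested.

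**Figure D4:**
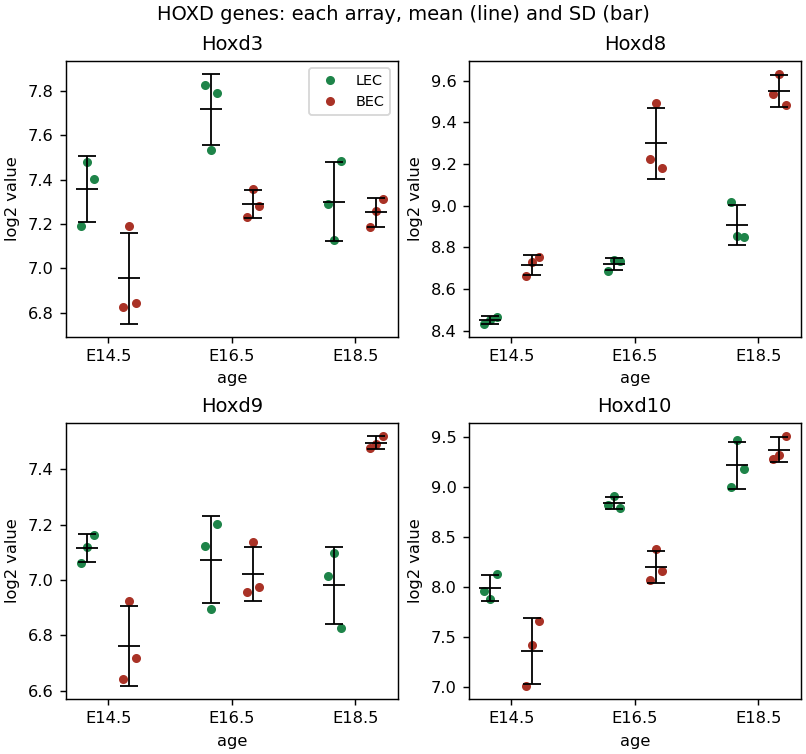
Log2 values of Hoxd3, Hoxd8, Hoxd9 and Hoxd10 on each array, by age, with LEC left of BEC, the mean as line and the SD as bar (n = 3 per group). Hoxd10 and Hoxd8 are higher at each later age in both cell types by their means, and Hoxd9 crosses over, with LEC above BEC at E14.5 and below it at E18.5.

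The age change itself differed between LEC and BEC for 2 HOX genes, both with the smaller change in LEC (0% of members on the higher side and 5.41% on the lower side, against 5.02% and 3.83% of all genes, 8.85% either way). At an unadjusted p under 0.05 the limma fit had 0 and 6, against 2072 and 2084 of all 19938 genes. For Hoxd9 the LEC change between E14.5 and E18.5 was -0.14 (adjusted p = 0.342), the BEC change was 0.74, and the LEC minus BEC difference of these changes was -0.87 ± 0.15 (SE, adjusted p = 0.000835). It held in all 26 alternatives run. For Hoxd10 the difference was -0.78 ± 0.21 (SE, adjusted p = 0.0249), and it was lost in 6 of 26 alternatives, among them a fit on the compared groups alone (adjusted p = 0.0549) and leaving out replicate 1 of BEC at E14.5, which gave -0.60 (adjusted p = 0.0731). The count was 1 without replicate 1 of BEC at E14.5, replicate 3 of BEC at E18.5 or replicate 3 of LEC at E14.5. The difference was not called for Hoxd8 (-0.38 ± 0.14, SE, adjusted p = 0.0991), Hoxb9 (-0.43 ± 0.20, SE, adjusted p = 0.215) or Hoxd3 (-0.35, adjusted p = 0.262). Larger differences went uncalled too, since they reached -0.695 in HoxA and -0.526 among the anterior members, where no member was called. Mural markers had a smaller age change in LEC as well, 8 of 10 called, with a median difference of -1.741, and their part in the HoxD values was not tested.

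**Figure D5:**
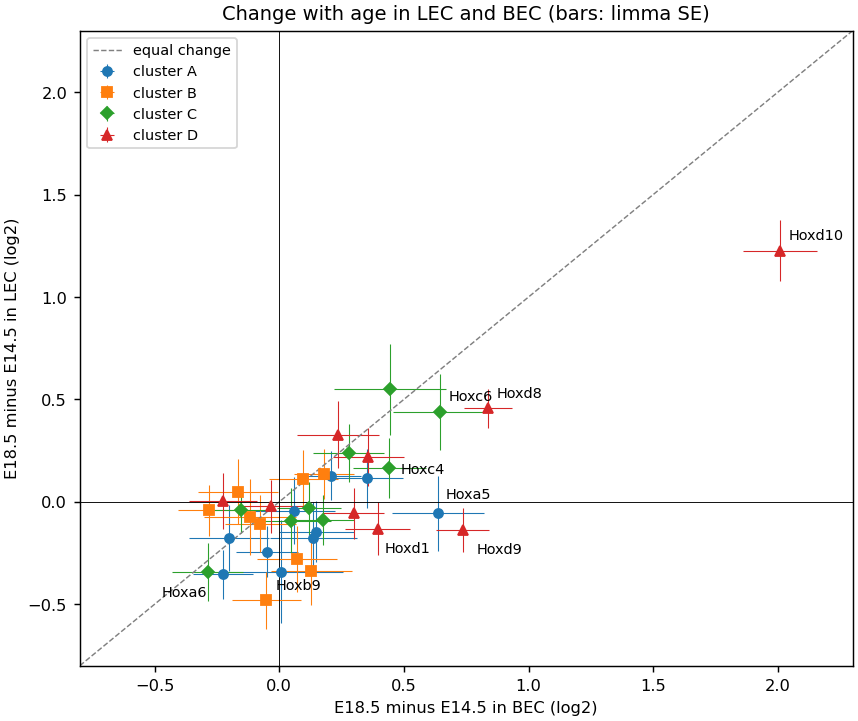
Change from E14.5 to E18.5 in LEC (vertical axis) and in BEC (horizontal axis) for the 37 HOX genes, in log2 units, with limma standard errors as bars and a dashed line of equal change. Named genes are those called in LEC or in BEC, and Hoxd9 and Hoxd10 lie furthest below the line.

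Step by step, Hoxd10 rose in LEC between E14.5 and E16.5 (0.85, adjusted p = 0.000718) and was not called between E16.5 and E18.5 (0.38, adjusted p = 0.0599). In BEC it rose in both steps, by 0.84 (adjusted p = 0.0015) and by 1.17 (adjusted p = 2.08e-05). Hoxd8 in BEC rose by 0.58 in the earlier step (adjusted p = 0.000813), and Hoxd9 in BEC by 0.47 in the later one (adjusted p = 0.003). For E16.5 minus E14.5, 1 HOX gene was higher and 2 lower in LEC, against 8.07% and 5.72% of all genes (13.8% either way), and 2 were higher and 1 lower in BEC, against 5.1% and 4.66% (9.76%). For E18.5 minus E16.5, 3 were higher and 1 lower in LEC, against 15.9% and 18.5% of all genes (34.4%). In BEC 7 were higher and 0 lower in that step, against 15.8% and 16.4% (32.3%). At an unadjusted p under 0.05 by limma the BEC counts were 13 and 2, against 4683 and 4060 of all 19938 genes. The 3 higher in LEC were Hoxc4, Hoxc13 and Hoxd13, none of them above the dim bound in any group, and the 1 lower was Hoxd3, which was above it in every group. The 7 in BEC were Hoxc4, Hoxc8, Hoxc9, Hoxd1, Hoxd9, Hoxd10 and Hoxd12. Of these Hoxc4 was above the bound in no group. After that same shift the later step had 1 higher and 4 lower in LEC, and 5 higher and 2 lower in BEC. That scaling gave all genes a median change of -0.066 in the later LEC step, in place of 0.052. Under quantile normalization of all rows 1 HOX gene was higher and 2 lower in that LEC step, and 0 of the 4 calls were kept. In the later BEC step 5 were then higher and 1 lower, and 4 of the 7 calls were kept. Without replicate 1 or 2 of LEC at E16.5 the LEC count was 1 or 2, and the earlier LEC step had 5 calls without replicate 3 of LEC at E18.5.

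Transcripts inside the clusters were compared next, since some lie between the called members. Of 24 transcripts listed in or beside the clusters 20 were measured, and over the 3 ages 3 were higher and 4 lower in LEC (median -0.102). That is 35% either way, near the 37.1% of all genes. The hairpin of Mir196a-1 lies between Hoxb13 and Hoxb9, next to Hoxb9. It read 2.68, 2.78 and 3.04 in LEC, against 3.96, 4.29 and 4.16 in BEC at E14.5. At E16.5 it read 2.86, 2.57 and 3.06 in LEC, against 4.26, 4.03 and 4.06 in BEC, and at E18.5 it read 2.75, 3.03 and 3.51 in LEC, against 4.81, 4.36 and 4.49 in BEC. All LEC arrays lay below all BEC arrays. The difference was -1.35 ± 0.10 (SE, adjusted p = 1.64e-09), with no group mean above the dim bound, so its size is uncertain, and an array for long RNA does not measure the mature microRNA. Skap1, a signalling adaptor gene listed beside the HoxB cluster, differed by 1.26 (adjusted p = 7.2e-08), Hoxaas2, which lies next to Hoxa3, by -0.36 (adjusted p = 0.00129) and Lnpk, listed beside the HoxD cluster, by 0.30 (adjusted p = 0.00768).

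The mature sequences are given to show that each of these microRNA families is encoded in several HOX clusters and shares a seed, the bases that pair with target transcripts, of which miR-196 is known in mice to pair with Hoxb8. They come from RefSeq on GRCm38.p6, are written 5′ to 3′, and capitals mark bases 2 to 8. The miR-196a strand is encoded at chr11:96265187-96265208 (Mir196a-1) and again in HoxC by Mir196a-2, miR-196b at chr6:52230129-52230150, miR-10a at chr11:96317186-96317208 and miR-10b at chr2:74726074-74726096.
mmu-miR-196a-5p: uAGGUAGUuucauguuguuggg
mmu-miR-196b-5p: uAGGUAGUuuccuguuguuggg
mmu-miR-10a-5p: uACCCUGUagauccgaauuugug
mmu-miR-10b-5p: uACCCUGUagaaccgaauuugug
Both miR-196 sequences share the seed AGGUAGU and both miR-10 sequences the seed ACCCUGU. The row of Mir10b was among the lower calls, and the rows of Mir196a-2, Mir196b and Mir10a were measured and not called.

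Among the partners of HOX factors, Meis2 and Meis1 were higher in LEC. Of 8 TALE genes measured, 3 were higher and 2 lower in LEC over the 3 ages (37.5% and 25%, against 18.2% and 19% of all genes, median 0.080). Meis2 read 8.71, 8.60 and 8.35 in LEC, against 6.49, 6.32 and 6.14 in BEC at E14.5, 8.90, 9.11 and 8.83 in LEC, against 5.56, 5.85 and 5.82 in BEC at E16.5, and 8.87, 8.77 and 8.52 in LEC, against 5.16, 4.71 and 4.79 in BEC at E18.5. All 9 LEC arrays lay above all 9 BEC arrays, by 3.09 ± 0.08 (SE, adjusted p = 5.68e-16). Between E14.5 and E18.5 it fell by 1.43 in BEC (adjusted p = 4.25e-07) and changed by 0.17 in LEC (adjusted p = 0.375), and the difference of these changes was 1.60 (adjusted p = 3.78e-05). Meis1 was higher in LEC by 1.68 ± 0.10 (SE, adjusted p = 5.31e-11), whereas Pbx2 (-0.36, adjusted p = 2.59e-05) and Pbx3 (-0.35, adjusted p = 0.000308) were lower.

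The regulators that set or keep HOX transcription had calls in both directions, set here beside the share of all genes. Cdx1, Cdx2 and Cdx4 are caudal-type genes, which act upstream of HOX genes in the early embryo. Over the 3 ages 0 of these 3 were called by limma. At an unadjusted p under 0.05, 0 were higher and 1 lower, against 4142 and 4626 of all 19938 genes. Of 21 Polycomb genes measured, 2 were higher and 6 lower in LEC over the 3 ages (median -0.075), which is 38.1% either way and near the 37.1% of all genes. Among them were Jarid2 (-0.58) and Pcgf2 (-0.41) lower and Phf19 (0.36) and Bmi1 (0.30) higher. With age 2 rose and 6 fell in LEC (38.1% either way, against 40.9% of all genes) and 4 rose and 3 fell in BEC (33.3%, against 30.6%), and Ezh1, a histone methyltransferase, rose in both (1.39 in LEC and 1.13 in BEC). Of 11 Trithorax and related genes, 2 were higher and 3 lower in LEC (45.5% either way), with Men1 (0.41) and Psip1 (0.33) higher. With age 0 rose and 4 fell in LEC, where Men1 fell by 1.16 (36.4% either way), and 3 rose and 4 fell in BEC (63.6%). Of 17 retinoid pathway genes measured, 3 were higher and 5 lower in LEC (47.1% either way, median -0.135). Dhrs3, which lowers retinaldehyde, was higher by 0.82 and the receptor gene Rarb by 0.79, while Rdh10, which makes retinaldehyde, differed by -0.71 and the receptor gene Rarg by -0.57. Each gene named here was called at an adjusted p under 0.05 in the limma fit.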

How the data were processed

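The 18 arrays are Affymetrix Mouse Gene 1.0 ST, and the deposited table holds log2 expression values; RMA and oligo 1.54.1 are the tools named in the submitters' processing notes. Whether all arrays were normalized together is not given in the sources used here. Of 35556 rows, 21789 had exactly 1 gene symbol in the platform annotation. The brightest row stood for each of 19938 genes, with no filter on dim genes. Each HOX member had 1 row.

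The limma package (3.58.1, under R 4.3.3) fitted group means (11 contrasts, eBayes without trend, 12 residual and 6.106 prior degrees of freedom), after a test on simulated data. Two-sided p-values were adjusted by Benjamini-Hochberg over all genes within a contrast, and genes were called at 0.05. Arrays give no read depth, and their number limits the precision.

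The members and lists (HOX partners, regulators, positional genes, targets, cluster transcripts and cell markers) were chosen with earlier results of these data known. Array values are given for members called over the 3 ages (8 largest each way), with age (5 largest each way), for the difference of age changes (6 largest), or at 1 age only (3 per age), and for the group or ages concerned. List genes are named where called, at most the 4 largest per contrast. The alternatives were scaling (common median, quantile), variance trend, array weights, the row rule, a dim filter, the groups fitted, a replicate block and leaving out each array.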

Additional observations from a re-analysis of the deposited data

Results flagged for a closer look

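For Hoxd9, the change between E14.5 and E18.5 differed between the cell types by -0.87 (LEC minus BEC, log2) in an interaction test in the limma fit, adjusted p = 0.000835. The Hoxd9 change was -0.14 in LEC and 0.74 in BEC. For Hoxd10 the same test gave a difference of -0.78, adjusted p = 0.0249, with changes of 1.23 in LEC and 2.01 in BEC. Both genes were thus singled out because their age change was smaller in LEC than in BEC.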

How the results depend on the processing

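Over 26 results for single HOX genes and 683 values under alternatives, 0 reversed and 29 lost their call. The 26 were picked because they were called, and many alternatives could not change their differences. Each HOX member had 1 row, so the row rule left its values as they were. Leaving out an array of a group that was not compared also left a difference unchanged. The age calls of Hoxc4 and Hoxd1 in BEC were not among the 26. The lost calls were of Hoxa3, Hoxa5, Hoxa6, Hoxc6, Hoxd1 at E18.5 (compared groups alone, adjusted p = 0.0635 in limma), Hoxd10 for the difference of age changes, and Hoxd11. Counts of called HOX genes were 3 for E16.5 minus E14.5 in LEC, and became 5 with arrays at a common median, 5 among genes above the dim bound, 6 with a robust variance trend and 7 with array weights. For E18.5 minus E16.5 in LEC 4 became 2 among genes above the bound and 1 with only the compared groups, for E16.5 minus E14.5 in BEC 3 became 6 with array weights, and for the difference of age changes 2 became 1 with array weights and 1 with only the compared groups. The cause of these moves was not tested.

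Leaving out 1 array at a time gave 12 to 15 calls for LEC minus BEC over the 3 ages, 5 to 8 at E14.5, 7 to 12 at E16.5 and 10 to 13 at E18.5. For E16.5 minus E14.5 it gave 2 to 5 in LEC and 2 to 4 in BEC, for E18.5 minus E16.5 1 to 5 in LEC and 5 to 9 in BEC, and for E18.5 minus E14.5 3 to 8 in LEC and 5 to 8 in BEC. The difference of age changes had 1 to 3. Without the E18.5 arrays LEC minus BEC had 15 calls, 3 higher and 12 lower.

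Deviations of same-numbered LEC and BEC arrays correlated at -0.107 to 0.13, so no shared deviation was seen, and the labels do not say whether a number marks a litter. With the replicate block the counts were 14 over the 3 ages, 6 at E14.5, 11 at E16.5, 10 at E18.5, 4 in LEC and 7 in BEC between the first and last age, and 3 for the difference of age changes. The log2 values of dim genes, most of HoxC among them, lie near the background, which limits what can be read from their differences.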

Other observations

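Outside the HOX clusters 23 other positional homeobox and T-box genes were measured. Over the 3 ages 0 were higher and 10 (43.5%) lower in LEC by limma (median -0.114), against 18.2% and 19% of all genes. The other 13 were not called. At an unadjusted p under 0.05 the counts were also 0 and 10, against 4142 and 4626 of all 19938 genes. The lower ones had Meox2 at -2.22, Prrx1 at -1.38, Msx1 at -1.22 and Tbx15 at -0.83. Prrx1 is also a mesenchymal marker. Between E14.5 and E18.5, 6 of the 23 rose and 1 fell in BEC (26.1% and 4.35%, against 13.3% and 17.3% of all genes). That is 30.4% either way, near the 30.6% of all genes. Among those that rose were Prrx1 (1.80), Meox1 (1.32) and Tbx15 (0.95). In LEC 2 rose and 1 fell (13% either way, against 40.9% of all genes). Of 14 genes reported as HOX targets in endothelium, 4 were higher and 8 lower in LEC over the 3 ages. That is 28.6% and 57.1%, against 18.2% and 19% of all genes. Plau differed by 1.55, Sele by -2.84, Nos3 by -2.02 and Epha4 by -1.30. Nos3 is also among the blood endothelial markers and Kdr, another of the 14, among the pan-endothelial ones.

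Over the 18 arrays, deviations from the group means of the 21 HOX genes above the dim bound in every group had a median correlation of 0.115 over 64 pairs of genes in the same cluster and of 0.073 over 146 pairs in different clusters. The pairs share arrays and genes, so these are descriptions.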
